A study of Homo sapiens with 4 samples.

Results

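*ATF4*, the 4 kinases that phosphorylate the translation factor eIF2alpha and the 2 regulatory subunits that direct its dephosphorylation were examined: *ATF4*, *EIF2AK1*, *EIF2AK2*, *EIF2AK3*, *EIF2AK4*, *PPP1R15A* and *PPP1R15B*. They were taken by symbol, 7 of 20457 symbols in the deposited tables. *ATF4* was picked because its TPM had been seen to be lower after *CNOT4* knockdown, so its difference is given as a description with no test. The other 6 were picked for their place upstream of it. All 7 had a mean of at least 1 TPM (an abundance per unit of gene length, scaled to the same sum in every library) over the libraries, the minimum for entering the comparison of 14208 features.

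The data are 4 poly(A)-selected RNA libraries of HEK293, a widely used cell line that came from human embryonic kidney. In the siControl group (labelled WT), 2 libraries came from cells given a negative control small interfering RNA (siRNA), and in the siCNOT4 group (labelled as a *CNOT4* knockdown) 2 came from cells given siRNA against *CNOT4*. All cells received 10 nM siRNA for 72 h. Nothing in the labels says whether the replicates were separate cultures, so p values measure only the spread between these libraries, which may be technical.

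Phosphorylation of eIF2alpha lowers the supply of initiator tRNA to the ribosome and slows most protein synthesis, while the mRNA of *ATF4*, through upstream open reading frames, is then translated better. ATF4 is a bZIP transcription factor that induces genes of amino acid supply and stress adaptation, and this chain is called the integrated stress response. Each kinase answers to its own signal: HRI (*EIF2AK1*) to heme shortage and mitochondrial stress, PKR (*EIF2AK2*) to double-stranded RNA, PERK (*EIF2AK3*) to unfolded protein in the endoplasmic reticulum (ER), and GCN2 (*EIF2AK4*) to uncharged tRNA and stalled or collided ribosomes. GADD34 (*PPP1R15A*, induced by stress) and CReP (*PPP1R15B*, constitutive) bring protein phosphatase 1 (PP1) to eIF2alpha and so close the chain. The kinases act through their own activation and not mainly through their mRNA level, and neither phosphorylation nor protein was measured here.

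The targeted mRNA was lower in both siCNOT4 libraries but was not called. *CNOT4* had 6.43 and 4.73 TPM in siControl and 3.38 and 3.81 TPM in siCNOT4, a ratio of means of 0.644 (limma adjusted p 0.184). The siControl libraries differed from each other more than the siCNOT4 libraries did. Across the tested genes the siControl difference (replicate 1 minus replicate 2) had a median of 0.38 and an SD of 0.48 on the log2(TPM + 1) scale, against -0.03 and 0.20 in siCNOT4. The median log2 fold change of all tested genes was 0.50, siCNOT4 being higher. For the 7 genes each fold change as deposited is therefore also given relative to that median. For single list genes it is not, and their values include this shift. Of the tested features, 12.6% were called at an adjusted p under 0.05, 11.3% as higher and 1.30% as lower in siCNOT4, and in 77.1% the groups did not overlap. The split depended on the scaling. After scaling by trimmed mean of M (TMM) 8.78% were called (4.45% higher, 4.33% lower), after quantile normalization 15.3% (7.11% higher, 8.23% lower), and with the trend against transcript length taken out of each library 26.0% (12.1% higher, 13.9% lower). It depended as much on single libraries: 79.6% of tested genes were called without siControl replicate 1 and 57.4% without siControl replicate 2, against 2.56% and 2.29% without siCNOT4 replicate 1 and 2, so list counts from those fits are read against these shares. Genes that mark this line were present (*KRT8* 303 to 360 TPM, *KRT18* 193 to 264 TPM, *NEFL* 307 to 384 TPM), although *NEFM* stayed below 1 TPM and *PAX2* reached 1.10 to 1.91 TPM. Of the same markers, *VIM* had 917 and 650 TPM in siControl and 369 and 354 TPM in siCNOT4, and *INA* had 9.60 and 5.62 TPM against 18.9 and 20.8 TPM. In contrast, 7 markers of blood, liver and fibroblasts reached at most 0.30 TPM.

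*ATF4* (chromosome 22, 39519695 to 39522685, GRCh38) was by far the most abundant of the 7 mRNAs in every library. It had 1005 and 1151 TPM in siControl and 358 and 352 TPM in siCNOT4. The groups were far apart, while the siCNOT4 replicates were nearly equal. The mean was 1078 ± 103 TPM in siControl and 355 ± 4.01 TPM in siCNOT4 (SD, n = 2 each), a ratio of 0.329. The log2 fold change was -1.60, or -2.10 relative to the overall median, and it was the 14th lowest of the 14208. It kept its sign under every alternative run, from -2.14 to -1.49. GENCODE 29 annotates processed pseudogene copies of *ATF4*, so the assignment of reads that match several places is uncertain.

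**Figure D1:**
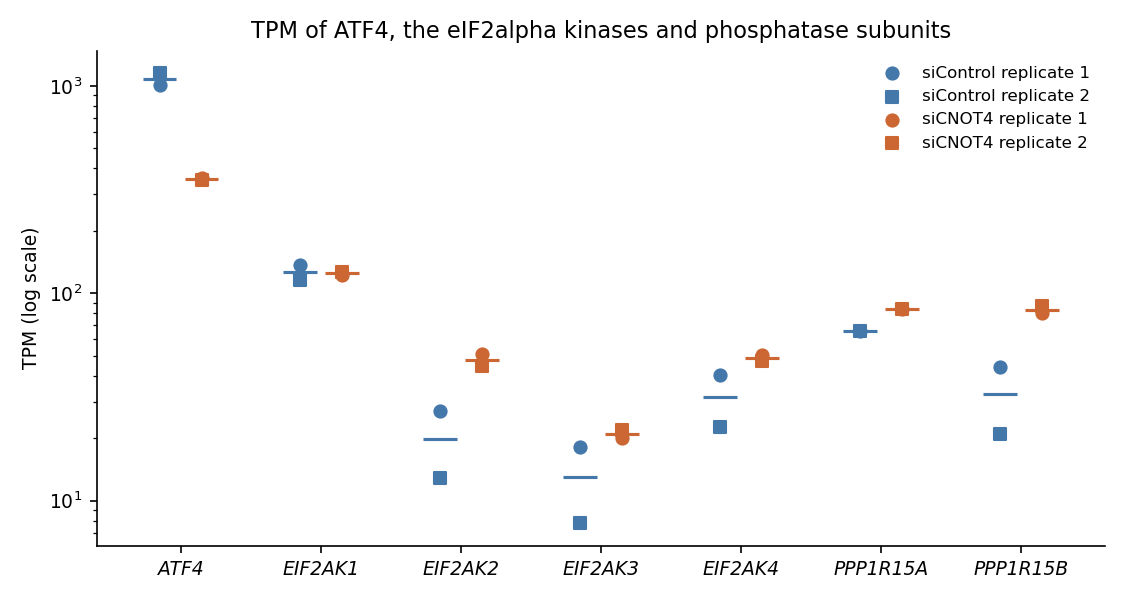
TPM of the 7 genes (log axis) in each library, circles for replicate 1 and squares for replicate 2, with a line at the mean of each group. *ATF4* alone has both siCNOT4 libraries below both siControl libraries, *EIF2AK1* overlaps, and the siControl squares lie well under the circles for *EIF2AK2*, *EIF2AK3*, *EIF2AK4* and *PPP1R15B*.

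None of the 4 kinase mRNAs was called in either direction for TPM as deposited. *EIF2AK2* had the largest difference, 1.31 on the log2 scale, and *EIF2AK1* had almost none. *EIF2AK3* (0.75) and *EIF2AK4* (0.67, but -0.03 once the length trend was removed) lay between them. At an unadjusted p under 0.05, 1 of the 4 (*EIF2AK2*) passed, beside 42.0% of all tested genes. In 3 of the 4 both siCNOT4 libraries lay above both siControl libraries, as they did in 66.4% of all tested genes.

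*EIF2AK1* encodes HRI, the heme-regulated kinase (chromosome 7, 6022244 to 6059230), and was the most abundant kinase mRNA. It had 136 and 116 TPM in siControl and 123 and 126 TPM in siCNOT4. Both siCNOT4 values lay between the siControl values. The log2 fold change was -0.01 (SE 0.16, 95% interval -0.40 to 0.38, limma adjusted p 0.952), or -0.51 relative to the median of all genes. Its value became -0.56 after TMM scaling and -0.65 with a limma adjusted p of 0.0328 once the trend with transcript length was removed from each library, whereas it was 0.10 without siControl replicate 1. Over its alternatives the adjusted p ranged from 0.0328 to 0.996. Its exons share 532 bases with *AIMP2* on the opposite strand, which had a log2 fold change of -0.22 (limma adjusted p 0.284), and the use of strand in counting is not given in the sources used here.

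*EIF2AK2* encodes PKR, the kinase activated by double-stranded RNA, and is itself an interferon-inducible gene (chromosome 2, 37099210 to 37157065). It had 27.0 and 12.8 TPM in siControl and 50.8 and 44.7 TPM in siCNOT4. The groups did not overlap, but the siControl libraries differed from each other by 1.02 on the log2 scale. The ratio of means was 2.40 and the log2 fold change 1.31 (SE 0.36, 95% interval 0.43 to 2.18, limma adjusted p 0.0593), or 0.81 relative to the median. The value came to 0.80 without siControl replicate 2 (limma adjusted p 0.00235), to 1.82 without siControl replicate 1 (6.88e-05), called in both. With the length trend removed it was 0.45, just called (limma adjusted p 0.0497), and over its alternatives the adjusted p ranged from 6.88e-05 to 0.354. *GPATCH11*, which shares 35 bases of exon with it on the opposite strand, had a log2 fold change of 1.50 (limma adjusted p 0.0627).

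*EIF2AK3* encodes PERK, the kinase of the ER membrane (chromosome 2, 88556741 to 88627576), and was the least abundant of the 7 mRNAs. It had 18.2 and 7.80 TPM in siControl and 20.0 and 21.9 TPM in siCNOT4. siControl replicate 1 lay close under the siCNOT4 values, and replicate 2 lay far below all others. The log2 fold change was 0.75 (SE 0.41, 95% interval -0.23 to 1.74, limma adjusted p 0.196), or 0.25 relative to the median. Without siControl replicate 2 it was 0.19, below the median of all genes in that fit by -0.11, and without siControl replicate 1 it was 1.32 and called (limma adjusted p 0.000140, in a range of 0.000140 to 0.714 over its alternatives). Its exons share 781 and 38 bases with 2 annotated antisense genes.

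*EIF2AK4* encodes GCN2, the kinase that senses amino acid shortage (chromosome 15, 39934146 to 40035591). It had 40.4 and 22.6 TPM in siControl and 50.5 and 47.3 TPM in siCNOT4. As for *EIF2AK3*, siControl replicate 2 lay far below the other libraries. *EIF2AK4* had a log2 fold change of 0.67 (SE 0.30, 95% interval -0.06 to 1.41, limma adjusted p 0.139), or 0.17 relative to the median. It came to 0.27 without siControl replicate 2, to 1.08 without siControl replicate 1, called in both (limma adjusted p 0.0431 and 0.000144, in a range of 0.000144 to 0.861), and -0.03 after removal of the length trend.

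Because TPM is scaled to a fixed sum, the kinases were also compared with each other inside each library. *EIF2AK1* made up 61.4% and 72.9% of the summed kinase TPM in siControl and 50.4% and 52.6% in siCNOT4. *EIF2AK2* made up 12.2% and 8.02% against 20.8% and 18.6%. The share of *EIF2AK1* was thus lower and that of *EIF2AK2* higher in both siCNOT4 libraries than in either siControl library. *EIF2AK4* held 18.2% and 14.2% against 20.7% and 19.7%, and *EIF2AK3* held 8.22% and 4.88% against 8.17% and 9.10%, with overlap. The mean share of *EIF2AK2* was 10.1% ± 2.93 and 19.7% ± 1.55 (SD, n = 2 each), a difference of 9.60 percentage points. That of *EIF2AK1* differed by -15.7 points. Without siControl replicate 2 the differences were -9.92 points for *EIF2AK1*, 1.97 in place of 3.99 for *EIF2AK4* and 0.42 in place of 2.09 for *EIF2AK3*, and without siControl replicate 1 those of *EIF2AK4* and *EIF2AK3* were 6.01 and 3.76. The two-sided exact permutation p was 0.333 for *EIF2AK1*, *EIF2AK2* and *EIF2AK4*, the smallest that 2 libraries against 2 allow, and 0.667 for *EIF2AK3*. Shares inside a library do not take out the trend with transcript length described below. With that trend removed, the log2 fold change was -0.65 for *EIF2AK1* and 0.45 for *EIF2AK2*.

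**Figure D2:**
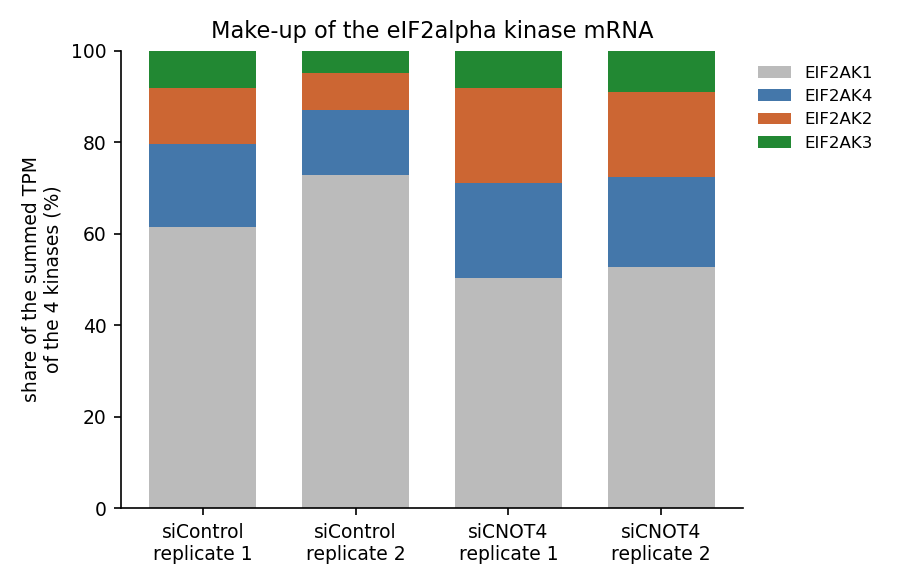
Share of each kinase in the summed TPM of the 4 kinases (%), 1 stacked bar per library. *EIF2AK1* takes 61.4% and 72.9% in siControl and 50.4% and 52.6% in siCNOT4, while the *EIF2AK2* segment is widest in the siCNOT4 bars.

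Of the phosphatase subunits, *PPP1R15B* rose in siCNOT4, and it was the only 1 of the 6 upstream genes called for TPM as deposited, beside 12.6% of all tested genes. In 5 of the 6 the groups did not overlap, beside 77.1% of all tested genes. *PPP1R15A* was not called. *PPP1R15B* (CReP, chromosome 1, 204403387 to 204411791) had 44.4 and 20.9 TPM in siControl and 80.2 and 86.6 TPM in siCNOT4. Both siCNOT4 libraries were well above both siControl libraries, which differed from each other by 1.05 on the log2 scale. The ratio of means was 2.55 and the log2 fold change 1.42 (SE 0.35, 95% interval 0.57 to 2.27, limma adjusted p 0.0495), or 0.92 relative to the median of all genes. The call was close to the threshold: over the alternatives the adjusted p ranged from 6.46e-05 to 0.160 and 5 of 11 called it. It was lost without siCNOT4 replicate 1 (limma adjusted p 0.0994) and without siCNOT4 replicate 2 (0.160). Its value was 0.89 in the fit lacking siControl replicate 2, 1.94 in that lacking siControl replicate 1 and 0.73 after removal of the length trend (limma adjusted p 0.0255), so its sign held in each of these.

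*PPP1R15A* (GADD34, chromosome 19, 48872392 to 48876057) showed the tightest replicates of the 7 genes. It had 66.2 and 65.7 TPM in siControl and 84.1 and 83.7 TPM in siCNOT4. The groups were separate, by a small step. The ratio of means was 1.27 and the log2 fold change 0.34 (SE 0.16, 95% interval -0.06 to 0.74, limma adjusted p 0.158), with the sign turned under TMM scaling (-0.20) and after removal of the length trend (-0.06). The value lay below the shift of all genes, by -0.16 relative to their median. It was called without siControl replicate 1 (limma adjusted p 0.00647) and without siControl replicate 2 (0.0122), in a range of 0.00647 to 0.939 over its alternatives. With a single siControl library those fits take the spread from the siCNOT4 pair and assume that siControl varies alike. *PPP1R15A*, often named among the mRNAs that ATF4 induces, was thus not lower in siCNOT4 as deposited.

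The balance of the subunits differed between groups. *PPP1R15B* stood at 0.670 and 0.319 of the TPM of *PPP1R15A* in siControl and at 0.954 and 1.03 in siCNOT4. In siControl *PPP1R15A* was therefore the more abundant subunit, and in siCNOT4 the 2 mRNAs were about equal. The log2 ratio of *PPP1R15A* to *PPP1R15B* was 1.11 ± 0.76 against 0.01 ± 0.08 (SD, n = 2 each), and an exact permutation test gave p = 0.333, the smallest possible. The difference of -1.10 became -0.57 without siControl replicate 2. A ratio inside a library does not take out the trend with transcript length described below, and the 2 mRNAs differ in length. With that trend removed, the log2 fold change was -0.06 for *PPP1R15A* and 0.73 for *PPP1R15B*. Summed, both subunits reached 111 and 86.6 TPM in siControl against 164 and 170 TPM in siCNOT4, whereas *ATF4* stood at 4.53 and 7.21 times the summed kinase TPM in siControl and at 1.46 and 1.47 times in siCNOT4.

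The order of the levels was similar in both groups. In siControl it ran *ATF4*, *EIF2AK1*, *PPP1R15A*, *PPP1R15B*, *EIF2AK4*, *EIF2AK2* and *EIF2AK3*, and the last 4 overlapped with their neighbours. In siCNOT4, *PPP1R15A* and *PPP1R15B* overlapped, as did *EIF2AK4* and *EIF2AK2*, and *EIF2AK3* lay below all others.

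**Figure D3:**
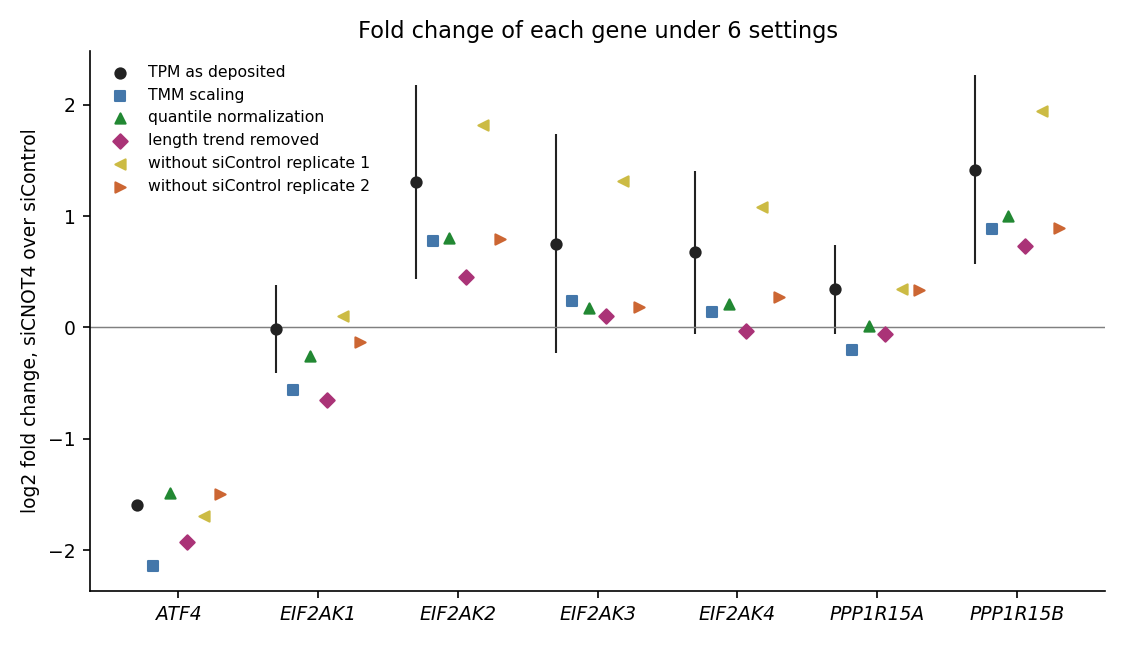
Log2 fold change of siCNOT4 over siControl for each gene under 6 settings, with limma 95% intervals (bars) for TPM as deposited. No interval is drawn for *ATF4*, which was chosen for this difference. *EIF2AK2*, *EIF2AK3* and *PPP1R15B* stay above 0 and *ATF4* below 0 in all 6, while *EIF2AK1*, *EIF2AK4* and *PPP1R15A* cross 0.

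Of the 6 upstream genes, 0 were called after TMM scaling by limma (8.78% of all tested genes), where 3 of the 6 had an unadjusted p under 0.05, beside 36.3% of all tested genes. It was 1 (*PPP1R15B*) after quantile normalization (15.3%) and 3 (*EIF2AK1* lower, *EIF2AK2* and *PPP1R15B* higher) after removal of the length trend (26.0%).

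The spread of the siControl libraries went with transcript length. Across 13738 tested genes with a GENCODE length, the siControl difference (replicate 1 minus replicate 2) had a Spearman rho of 0.601 with length, and the log2 fold change had a rho of 0.375, both across genes, which share the same 4 libraries. Larger siControl differences were 1.02 for *EIF2AK2* (10042 nt), 1.05 for *PPP1R15B* (5227 nt), 0.81 for *EIF2AK4* (5499 nt) and 1.13 for *EIF2AK3* (4646 nt). The difference was 0.23 for *EIF2AK1* (4469 nt), 0.01 for *PPP1R15A* (2378 nt) and -0.20 for *ATF4* (2019 nt). *EIF2AK3* and *EIF2AK1* are close in length, so these genes followed length only loosely. Each length is that of 1 annotated transcript. *EIF2AK2* has 8 in GENCODE, and which of them these cells make was not tested. Removal of the length trend left *EIF2AK2* at 0.45, *PPP1R15B* at 0.73 and *ATF4* at -1.93, and brought *EIF2AK3* to 0.10 and *EIF2AK4* to -0.03. That alternative was added after the data were seen. RNA quality was not measured in these files, and its part in the trend was not tested.

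**Figure D4:**
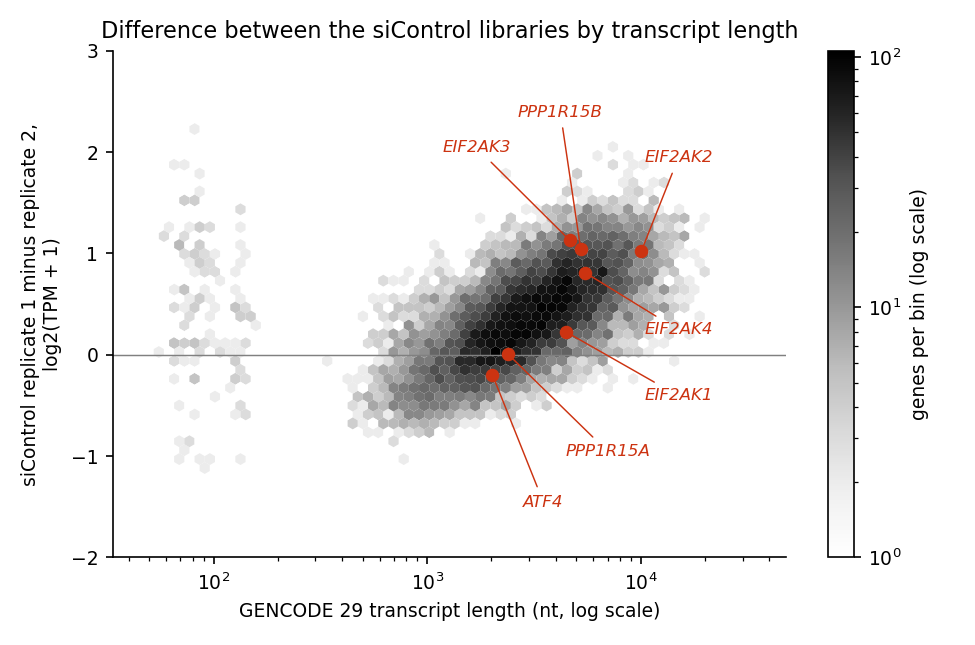
Difference between the siControl libraries in log2(TPM + 1), replicate 1 minus replicate 2, against GENCODE 29 transcript length (log axis), with 13738 genes as grey bins and the 7 genes in red. The difference grows with length, and *EIF2AK2*, *EIF2AK3*, *EIF2AK4* and *PPP1R15B* lie at 0.81 to 1.13 while *ATF4* and *PPP1R15A* lie near 0.

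GC3, the percentage of codons with G or C at the last position, was computed for each gene. It was highest in *ATF4* (61.5%) and *PPP1R15A* (55.9%) and lowest in *EIF2AK2* (30.9%), with *EIF2AK4* at 51.4%, *EIF2AK1* at 47.9%, *PPP1R15B* at 46.4% and *EIF2AK3* at 42.7%. *ATF4* stood at the 54.1 percentile of 12877 tested genes and *EIF2AK2* at the 1.99 percentile. *ATF4*, highest of the 7 in GC3, had the lowest fold change. With 7 genes picked by role this is a description.

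Promoter sequence was looked at for response elements of the pathway, since *EIF2AK2* and *PPP1R15B* had the largest positive differences. RefSeq (GRCh38.p14) held a window of 250 bases before to 50 after the gene start for 6 of the 7 genes, all but *EIF2AK1*. Searched on both strands, with 1 window for each symbol, were the core of the C/EBP-ATF response element bound by ATF4 (TGATGNAA), the cAMP response element (TGACGTCA), the core of the interferon-stimulated response element (GAAA and GAAA spaced by 2 bases) and the ER stress response element (CCAAT and CCACG spaced by 9 bases). Each of the first 3 was found in 1 of the genes and the last, present in 0.0806% of windows, in none. The stretches of 30 bases around the matches, 5′ to 3′ on the strand of the gene with the matched letters in capitals, were these, shown because they set *PPP1R15B*, *PPP1R15A* and *EIF2AK2* apart by the motif they carry.
PPP1R15B, chr1:204412026-204412055, minus strand: cccgccccggcTGATGCAAcctcacgctgc
PPP1R15A, chr19:48872352-48872381, plus strand: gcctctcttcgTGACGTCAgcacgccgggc
EIF2AK2, chr2:37156967-37156996, minus strand: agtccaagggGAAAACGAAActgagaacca
Distances are counted from the RefSeq starts, at 204411817 for *PPP1R15B*, 48872421 for *PPP1R15A* and 37156980 for *EIF2AK2*, which differ from the GENCODE 29 gene limits given above. The stretch of *EIF2AK2* lies inside its GENCODE limits. The C/EBP-ATF core of *PPP1R15B* began 227 bases before the RefSeq start and was present in 3.67% of 27305 promoter windows. *PPP1R15B*, the gene with the C/EBP-ATF core, was higher in siCNOT4 while *ATF4* mRNA was lower. Which of these motifs ATF4 binds in these cells was not tested. The cAMP response element of *PPP1R15A* began 58 bases before the start (1.98% of windows), and the interferon-type core of *EIF2AK2* began 6 bases before it (3.65%). A match of letters is a description and not evidence of binding.

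Upstream of the kinases, 14 genes that feed signals to them were taken from a list chosen by role. In siCNOT4, 2 of 14 rose and 0 fell, beside 11.3% and 1.30% of all tested genes, and the list median was 0.43 against 0.50 for all genes. Both called genes belong to the ER side: *DNAJC3* (P58IPK, an inhibitor of PERK and PKR) had 12.8 and 8.13 TPM in siControl and 24.1 and 26.4 TPM in siCNOT4, a log2 fold change of 1.22 (limma adjusted p 0.0494, SE 0.30). *HSPA5* (BiP, the ER chaperone that holds PERK inactive) had 297 and 259 TPM against 412 and 410 TPM, a log2 fold change of 0.57 (limma adjusted p 0.0492, SE 0.14) that was -0.03 after removal of the length trend. Neither call held without siCNOT4 replicate 1 or without siCNOT4 replicate 2, where the list had 0 calls, and the list had 12 of 14 without siControl replicate 1 (79.6% of all tested genes) and 12 without siControl replicate 2 (57.4%). After TMM scaling 0 were called higher and 1 lower, beside 4.45% and 4.33% of all tested genes. With the length trend removed 2 were called higher and 2 lower, beside 12.1% and 13.9%.

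The inputs tied to GCN2 and HRI, and *PRKRA*, were not called for TPM as deposited. *GCN1* (listed as GCN1L1), the ribosome-bound activator of GCN2, had 62.3 and 30.05 TPM against 77.8 and 83.4 TPM, a log2 fold change of 0.88 (limma adjusted p 0.106). The mitochondrial relay to HRI gave opposite signs: the protease gene *OMA1* had a log2 fold change of 0.88 (limma adjusted p 0.0582) and *DELE1* (listed as KIAA0141), which carries the signal to the cytosol, one of -0.29 (0.319). *DELE1* was called lower after TMM scaling (-0.82), after quantile normalization (-0.78) and with the length trend removed (-0.97). *OMA1* was called higher with the length trend removed (0.57). Without siControl replicate 2 the values were -0.36 for *DELE1*, 0.74 for *OMA1* and 0.36 for *GCN1*. Without siControl replicate 1 they were -0.22, 1.03 and 1.39. *PRKRA* (PACT), a protein activator of PKR, had 54.3 and 51.5 TPM against 73.6 and 73.9 TPM, a log2 fold change of 0.47 that was -0.07 after TMM scaling (limma adjusted p 0.0953).

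A list for the substrate of the kinases (eIF2), its exchange factor (eIF2B) and other initiation factors, among them *EIF5*, held 13 genes. Of these 13, 2 rose and 1 fell, beside 11.3% and 1.30% of all tested genes. The list median was 0.45 against 0.50 for all genes. *EIF2S1*, which encodes eIF2alpha itself, rose from 105 and 81.5 TPM to 172 and 170 TPM, a log2 fold change of 0.88 (limma adjusted p 0.0396, SE 0.18). *EIF2S2*, which encodes the beta subunit, fell from 198 and 224 TPM to 140 and 135 TPM, a log2 fold change of -0.61 (limma adjusted p 0.0488, SE 0.15). In both genes the groups did not overlap. *EIF2S3*, which encodes the gamma subunit, had 489 and 446 TPM against 360 and 366 TPM, a log2 fold change of -0.36 (limma adjusted p 0.0918). The value of *EIF2S1* was 0.33 after TMM scaling and 0.24 with the length trend removed, not called in either. With that trend removed *EIF2S2* and *EIF2S3* were called lower and 0 of the list higher, beside 13.9% and 12.1% of all tested genes. *EIF5*, the GTPase activator of eIF2, rose by 1.05 on the log2 scale (limma adjusted p 0.0397, SE 0.22). *EIF2B5*, the catalytic subunit of the exchange factor eIF2B that phosphorylated eIF2 inhibits, had 42.1 and 30.7 TPM against 51.6 and 55.5 TPM, a log2 fold change of 0.56 (limma adjusted p 0.115). After TMM scaling, and without siCNOT4 replicate 1 or without siCNOT4 replicate 2, 0 of the 13 were called. Without siControl replicate 1 all 13 were called (79.6% of all tested genes) and without siControl replicate 2, 10 were (57.4%).

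None of the 3 catalytic subunits of PP1, the enzyme that the *PPP1R15* products carry to eIF2alpha, was called by limma, beside 12.6% of all tested genes, and 2 of 3 had an unadjusted p under 0.05, beside 42.0%. *PPP1CA* had 150 and 129 TPM against 191 and 204 TPM, a log2 fold change of 0.50 (limma adjusted p 0.0724) that was -0.05 after TMM scaling (limma adjusted p 0.851). *PPP1CB* had 87.3 and 61.1 TPM against 121 and 112 TPM, a log2 fold change of 0.67 (0.0765). *PPP1CC* had 338 and 271 TPM against 347 and 324 TPM, with overlapping groups (0.15, limma adjusted p 0.491). The list had 3 calls without siControl replicate 1 (79.6% of all tested genes) and 2 without siControl replicate 2 (57.4%).

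Among 15 genes for the turnover of ATF4 protein and for bZIP factors that pair with it or act beside it, 1 rose and 2 fell, beside 11.3% and 1.30% of all tested genes. After TMM scaling 0 were called higher and 3 lower, beside 4.45% and 4.33% of all tested genes. After quantile normalization it was 2 and 6 (7.11% and 8.23%), and with the length trend removed 2 and 8 (12.1% and 13.9%). *BTRC*, the ubiquitin ligase receptor that marks ATF4 for degradation, rose from 19.9 and 12.2 TPM to 40.3 and 38.5 TPM, a log2 fold change of 1.28 (limma adjusted p 0.0445, SE 0.29). The bZIP gene *JDP2* fell from 8.45 and 6.66 TPM to 2.26 and 1.67 TPM (log2 fold change -1.53, SE 0.26, limma adjusted p 0.0288), and *ATF5*, a close relative of *ATF4*, fell from 77.7 and 88.7 TPM to 43.9 and 48.5 TPM (-0.83, SE 0.18, limma adjusted p 0.0437). *DDIT3* (CHOP), the factor most often used to read this pathway, was not called for TPM as deposited: it had 100 and 116 TPM against 74.98 and 87.0 TPM, a log2 fold change of -0.41 (limma adjusted p 0.130). It was called lower after quantile normalization (-0.70), with the length trend removed (-0.57) and without siControl replicate 1 (-0.51) or siControl replicate 2 (-0.31). *ATF3* had a log2 fold change of 0.76 (limma adjusted p 0.0780), *CEBPB* of -0.48 (0.197) and *CEBPG*, a dimer partner of ATF4, of -0.15 (0.615). *CEBPB* was called lower after TMM scaling (-0.99), after quantile normalization (-1.09) and with the length trend removed (-0.81), and *CEBPG* with the length trend removed (-0.77), although it was 0.17 without siControl replicate 1. The list had 0 calls without siCNOT4 replicate 1 or without siCNOT4 replicate 2, 13 without siControl replicate 1 (79.6% of all tested genes) and 12 without siControl replicate 2 (57.4%).

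Downstream, 12 of 34 known ATF4 target genes fell and 0 rose in siCNOT4, beside 1.30% of all tested genes called lower. As deposited, 28 of the 34 had a negative log2 fold change and 6 a positive one. In 23 of the 34 the groups did not overlap, beside 77.1% of all tested genes. The list median was -0.60 against 0.50 for all genes, and all 34 lay below the median of all genes. The list was chosen with earlier results of these libraries known and is not independent evidence of its direction. The 6 largest decreases were in *EIF4EBP1*, *NUPR1*, *GDF15*, *PYCR1*, *STC2* and *DDIT4*. *PYCR1*, the last enzyme of proline synthesis, fell from 94.6 and 70.5 TPM to 22.7 and 21.0 TPM, a log2 fold change of -1.86 (limma adjusted p 0.0227, SE 0.23). *STC2*, a secreted glycoprotein, fell from 120 and 85.5 TPM to 35.5 and 31.0 TPM (-1.58), and *DDIT4*, an inhibitor of mTORC1, from 385 and 331 TPM to 132 and 109 TPM (-1.57). *CHAC1*, which breaks down glutathione, fell by 1.53 on the log2 scale, and *MTHFD2*, *SLC1A5*, *PSAT1*, *PHGDH* and *CBS* were also called, with log2 fold changes of -1.25 to -0.78.

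The classic targets *ASNS* and *TRIB3* were not called for TPM as deposited, and both differed less than *ATF4* itself. *ASNS* (asparagine synthetase) had 462 and 437 TPM against 336 and 258 TPM, a log2 fold change of -0.61 (limma adjusted p 0.0593). *TRIB3*, a pseudokinase that feeds back on ATF4, had 122 and 110 TPM against 96.8 and 93.6 TPM, a log2 fold change of -0.28 (limma adjusted p 0.210). *TRIB3* was called lower after TMM scaling (-0.83), after quantile normalization (-0.56) and with the length trend removed (-0.52), and *ASNS* with the length trend removed (-1.003). The number of ATF4 targets called was 22 after TMM scaling, all lower, beside 4.33% of all tested genes called lower. Fewer targets than as deposited were called without siCNOT4 replicate 1 or without siCNOT4 replicate 2, where the list median was -0.73 and -0.55. Without siControl replicate 2 there were 30 (57.4% of all tested genes were called), all lower, and without siControl replicate 1 there were 26 (79.6%), of which 20 were lower.

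**Figure D5:**
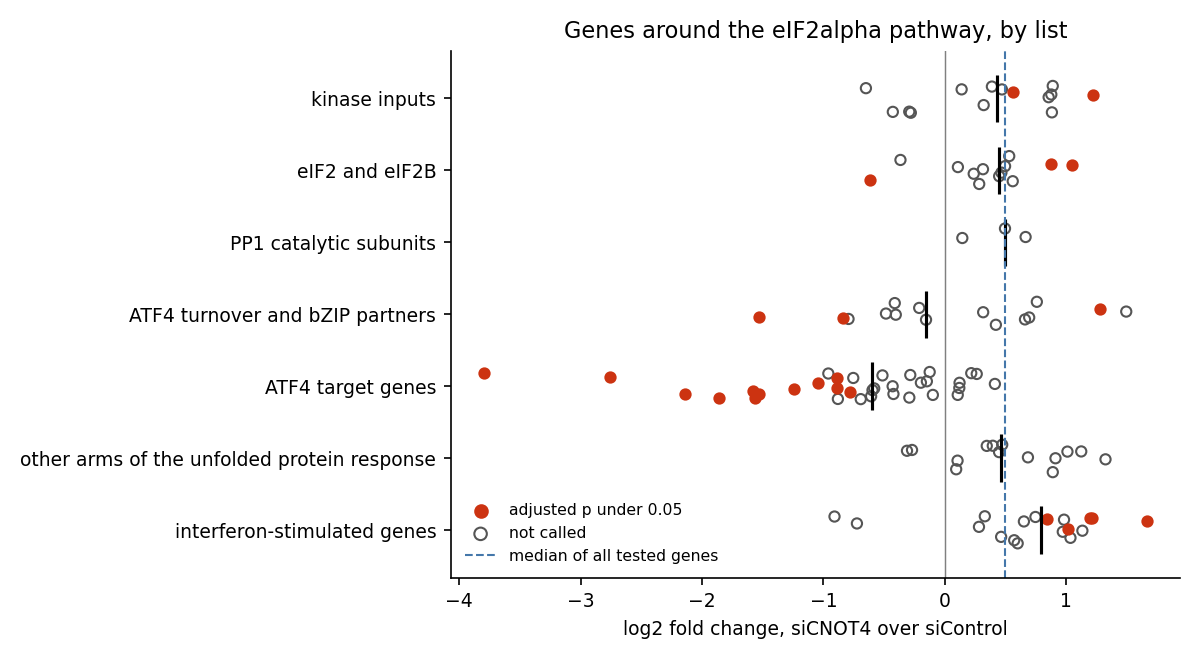
Log2 fold change of siCNOT4 over siControl for the tested genes of 7 lists, filled where the limma adjusted p is under 0.05, with a black bar at the median of each list and a dashed line at the median of all tested genes (0.50). All 34 ATF4 targets lie left of the dashed line, while the medians of the kinase inputs, eIF2 and eIF2B, PP1 and unfolded protein response lists lie close to it.

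PERK is a sensor of the unfolded protein response, and 14 genes of the other arms, read through IRE1 and ATF6, were taken for comparison. By limma 0 of 14 were called, beside 12.6% of all tested genes, and 7 had an unadjusted p under 0.05, beside 42.0%. The median was 0.46 against 0.50 for all genes. The 2 largest values were those of *ERN1* (IRE1) with 3.85 and 0.832 TPM against 6.62 and 6.33 TPM (log2 fold change 1.33, limma adjusted p 0.0868) and *EDEM1* with 1.13 (0.0549). *EDEM1* was called higher after quantile normalization (0.61) and with the length trend removed (0.39). With that trend removed *XBP1* (-0.60) and *HERPUD1* (-0.38) were called lower. The list thus had 1 higher and 2 lower, beside 12.1% and 13.9% of all tested genes. The list had 13 calls without siControl replicate 1 (79.6% of all tested genes) and 9 without siControl replicate 2 (57.4%).

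*EIF2AK2* was read beside 21 other interferon-stimulated genes. Of these, 18 passed the minimum TPM, 5 rose and 0 fell, beside 11.3% and 1.30% of all tested genes. The median over the 18 was 0.80 against 0.50 for all genes. After TMM scaling only *OAS3* (1.29) was called, beside 4.45% of all tested genes called higher. *OAS3*, a sensor of double-stranded RNA, rose from 1.36 and 0.882 TPM to 5.50 and 5.87 TPM, a log2 fold change of 1.66 (limma adjusted p 0.0235, SE 0.23). *IFIH1* (MDA5), a sensor of the same ligand, rose from 9.69 and 7.44 TPM to 21.0 and 21.1 TPM (1.21, limma adjusted p 0.0439), and *IRF7*, *IFI44* and *MX1* rose by 1.20, 1.02 and 0.85 on the log2 scale. *IFI44* passed the minimum only through its siCNOT4 values. *ISG15* and *BST2* had the opposite sign, with log2 fold changes of -0.91 and -0.72 (limma adjusted p 0.0769 and 0.127). With the length trend removed both were called lower (-1.01 and -0.87) and 7 of the list higher, beside 13.9% and 12.1% of all tested genes. After quantile normalization *ISG15* (-1.49) was called lower and 1 gene higher, beside 8.23% and 7.11%. Without siCNOT4 replicate 1 or without siCNOT4 replicate 2 the list had 1 call. Without siControl replicate 1 it had 18 (79.6% of all tested genes) and without siControl replicate 2 it had 16 (57.4%), counts that include *RSAD2*, which passed the minimum in those fits only through its siCNOT4 values (0.417 and 0.368 TPM in siControl, 1.52 and 1.45 TPM in siCNOT4).

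The features whose pattern over the 4 libraries was most like that of *ATF4* were *EXOSC5*, *KRTAP19-1*, *TMSB4X*, *PPP1R14B* and *GAS5*, out of 11394 with a mean TPM of at least 5. Likeness was the root mean square difference of log2(TPM + 1) values centred on each gene, which was 0.09, 0.10, 0.13, 0.14 and 0.15. *EXOSC5*, a subunit of the RNA exosome, had 113 and 122 TPM in siControl and 41.3 and 43.7 TPM in siCNOT4. *GAS5*, a non-coding host of small nucleolar RNAs, had 974 and 1211 TPM against 458 and 389 TPM. None of these 5 belonged to the ATF4 target list, and the likeness was not tested.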

How the data were processed

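The 4 tables hold TPM values, which the authors scaled to a sum of 1000000 in each library, per the file headers and column sums. The submitters' processing notes name FastQC 0.11.2, STAR 2.5.3a, featureCounts and the build hg19; annotation and strand setting are not given in the sources used here. Gene positions, lengths and GC3 came from GENCODE 29 (GRCh38) by symbol or RefSeq synonym (19395 of 20457 features) and were not converted between builds. Read totals are not in the tables. Steps in the low values of genes with 1 transcript gave about 30700000, 29800000, 31800000 and 31400000 reads (siControl 1 and 2, siCNOT4 1 and 2), where 64.0% to 69.1% of values under 6 reads were whole within 0.05. At that depth the widest 95% exact Poisson interval of any of the 7 genes was ± 8.59% (*EIF2AK3*, siControl replicate 2), for counting error only.

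Groups came from sample titles. log2(TPM + 1) was compared, for features averaging 1 TPM or more, with limma 3.58.1 in R 4.3.3 (lmFit, eBayes with a trend, 2 libraries against 2, no covariates), with Benjamini-Hochberg adjustment over all 14208 features and a threshold of 0.05. The pseudocount understates changes of low genes. The fit was also run on simulated data with equal spread in both groups, no length trend and no shift between libraries. That run cannot tell how reliable the calls are in these libraries, which differ in all of these. TMM scaling was computed unweighted on TPM, and the length trend was removed with a natural spline. Alternatives changed the pseudocount, filter, scaling, replicate block and each library. Text names *CNOT4*, the 7 genes, called list genes (at most 6 in each direction, or the 2 largest where none was called), key genes of each role and the 5 patterns nearest to *ATF4*. Marker genes, overlapping genes, *ISG15*, *BST2*, *RSAD2*, *EIF2S3*, *XBP1*, *HERPUD1* and 6 further ATF4 targets were named after their values were seen. Those 6 targets were *CHAC1*, *MTHFD2*, *SLC1A5*, *PSAT1*, *PHGDH* and *CBS*. Members, lists and tests were chosen with earlier results of these data known.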

Additional observations from a re-analysis of the deposited data

How the results depend on the processing

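The split of calls into higher and lower depended on the scaling, and their number also on the filter and on single libraries. The count of called genes, 1792 for TPM as deposited, was 558 with a pseudocount of 0.1, 908 with no filter on low values, 147 with a mean TPM of at least 5, 3655 with the replicate block and 3568 with the length trend removed (added after the data were seen), and it ranged from 321 to 11407 when 1 library was left out. Of the calls, 1608 were higher and 184 lower as deposited (11.3% and 1.30% of all tested genes). After TMM scaling they were 632 and 615 (4.45% and 4.33%), and after quantile normalization 1010 and 1169 (7.11% and 8.23%). With the length trend removed they were 1656 and 1912 (12.1% and 13.9%). List counts below are read against these shares. Fits with a single siControl library take their spread from the siCNOT4 pair and assume that siControl varies alike.

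*ATF4* was -2.14 after TMM scaling, -1.49 after quantile normalization and -1.93 with the length trend removed, and -1.69 to -1.498 with 1 library left out. *EIF2AK1* was -0.65 and called with the length trend removed, reversed to 0.10 and 0.01 without siControl replicate 1 and siCNOT4 replicate 1, and ranged from -0.13 to 0.10 with 1 library left out. *EIF2AK2* was called with the replicate block (1.31) and with the length trend removed (0.45), and ranged from 0.80 to 1.82 with 1 library left out. *EIF2AK3* ranged from 0.19 to 1.32. *EIF2AK4* reversed to -0.030 with the length trend removed and ranged from 0.27 to 1.08. *PPP1R15A* reversed to -0.20 after TMM scaling and to -0.057 with the length trend removed, and ranged from 0.34 to 0.35. *PPP1R15B* lost its call with a pseudocount of 0.1 (1.45), with no filter and with the minimum of 5 TPM (1.42 each) and after TMM scaling (0.88), and ranged from 0.89 to 1.94. The cause of these shifts was not tested. With any 1 library left out, the share of *EIF2AK1* differed by -21.4 to -9.92 points, *EIF2AK2* by 7.53 to 11.7, *EIF2AK3* by 0.42 to 3.76 and *EIF2AK4* by 1.97 to 6.01, and the log2 subunit ratio by -1.64 to -0.57.

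Called genes among kinase inputs, 2 as deposited (both higher), were 0 with a pseudocount of 0.1, no filter or a mean TPM of at least 5, 1 after TMM scaling (lower), 6 with the replicate block (4 higher, 2 lower) and 4 with the length trend removed (2 higher, 2 lower; 0 to 12 with 1 library left out). For eIF2 and eIF2B, 3 became 0 with a pseudocount of 0.1, no filter, a mean TPM of at least 5 or TMM scaling (0 to 13). For PP1, 0 became 1 with the replicate block (0 to 3). For ATF4 turnover and partners, 3 became 1 with a pseudocount of 0.1, 0 with no filter or a mean TPM of at least 5, 8 after quantile normalization (2 higher, 6 lower), 6 with the block (4 higher, 2 lower) and 10 with the length trend removed (2 higher, 8 lower; 0 to 13). For ATF4 targets, 12 became 22 after TMM scaling, 21 after quantile normalization and 28 with the length trend removed (6 to 30). For the other unfolded protein response arms, 0 became 3 after quantile normalization, 5 with the block and 3 with the length trend removed (1 higher, 2 lower; 0 to 13). For interferon-stimulated genes, 5 became 1 with a pseudocount of 0.1, 2 with no filter, 0 with a mean TPM of at least 5, 1 after TMM scaling, 2 after quantile normalization (1 higher, 1 lower) and 9 with the length trend removed (7 higher, 2 lower; 1 to 18).

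The replicate numbers in the titles name no shared source. Deviations of same-numbered libraries from their group means correlated at 0.17 across genes, and the replicate block was therefore only an alternative.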
